A study of Homo sapiens with 8 samples.

Results

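Motile cilia are beating projections of the cell surface, and the 57 genes described here encode parts of the machine that moves them. The genes were taken as a written list of known cilium genes, proposed with earlier results of these data in view, and comprised 6 regulators, 12 axonemal dynein heavy chains, 4 intermediate or light chains, 6 dynein assembly factors and 29 further structural genes, out of 58216 genes with a matched transcript. They were measured in OPCs (oligodendrocyte progenitor cells) differentiated from human embryonic stem cells of the established line H9, so all values come from 1 line. OPCs were seeded at 1 density in the same OPC medium and kept for 2 days, without SOX10 overexpression, on Matrigel (a basement membrane extract, the control substrate), on VN (recombinant full-length vitronectin) or on VNP2 (a designed peptide derived from vitronectin). Polyadenylated RNA was sequenced from 2 libraries on Matrigel (replicates 2 and 3), 3 on VN and 3 on VNP2.

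In a motile cilium, outer and inner dynein arms slide neighboring microtubule doublets against each other, while nexin-dynein links, radial spokes and the central pair shape the beat. FOXJ1 is the transcription factor best known for switching on motile cilium genes, the RFX factors bind X-box sequences near ciliary genes, and GMNC, MCIDAS and CCNO act in the multiciliated cell program. In the developing spinal cord, motile cilia and FOXJ1 are known from the floor plate, while neural progenitors in general carry a primary cilium without dynein arms.

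Promoters of 4 members that were called in at least 1 comparison held the palindromic form of the X-box (GTNNCC, any 2 bases, then GGNNAC) and are shown because RFX factors, which bind this kind of sequence, are themselves members. They are RefSeq promoters of GRCh38.p14, from 250 bases before to 50 after the start, all on the plus strand: DNAH1 at chr3:52316069-52316368, DNALI1 at chr1:37556690-37556989, SPAG6 at chr10:22345246-22345545 and PIFO at chr1:111346372-111346671. Capitals mark the match.
DNAH1: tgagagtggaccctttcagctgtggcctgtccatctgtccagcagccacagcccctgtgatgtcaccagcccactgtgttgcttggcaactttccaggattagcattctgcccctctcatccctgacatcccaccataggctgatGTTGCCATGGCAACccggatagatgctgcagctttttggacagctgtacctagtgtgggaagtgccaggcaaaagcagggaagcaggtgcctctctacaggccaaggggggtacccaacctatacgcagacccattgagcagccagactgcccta
DNALI1: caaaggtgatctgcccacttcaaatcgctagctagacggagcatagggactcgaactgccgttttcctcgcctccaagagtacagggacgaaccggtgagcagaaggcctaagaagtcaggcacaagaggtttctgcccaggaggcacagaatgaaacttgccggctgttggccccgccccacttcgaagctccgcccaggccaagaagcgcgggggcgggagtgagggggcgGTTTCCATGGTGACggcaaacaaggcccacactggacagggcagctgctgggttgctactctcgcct
SPAG6: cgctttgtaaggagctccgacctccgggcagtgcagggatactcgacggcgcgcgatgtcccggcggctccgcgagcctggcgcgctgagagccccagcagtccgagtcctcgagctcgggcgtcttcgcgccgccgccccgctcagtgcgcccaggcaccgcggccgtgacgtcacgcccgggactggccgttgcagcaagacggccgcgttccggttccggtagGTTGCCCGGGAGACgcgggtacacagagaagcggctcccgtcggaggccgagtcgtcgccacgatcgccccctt
PIFO: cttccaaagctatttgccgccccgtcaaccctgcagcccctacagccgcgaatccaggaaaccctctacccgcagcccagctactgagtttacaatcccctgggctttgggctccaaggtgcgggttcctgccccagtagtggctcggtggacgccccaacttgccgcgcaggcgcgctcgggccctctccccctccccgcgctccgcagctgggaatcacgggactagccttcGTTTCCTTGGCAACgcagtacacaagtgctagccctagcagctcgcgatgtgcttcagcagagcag
The match began 105 bases before the start in DNAH1, 17 in DNALI1, 24 in SPAG6 and 16 in PIFO. Searched on both strands, the form was present in 17.9% of the 56 promoters found for 44 members and in 2.08% of all 35116 promoters of the table. Of the 10 members with the form, CCNO, DNAH2, DNAH11, DNAH12, RSPH9 and SPAG16 were not called in any pair. The shorter X-box core GTTGCCA was present in 25.0% of the members' promoters and 4.08% of all, and it can overlap the longer form, as it does in DNAH1. The forkhead core TGTTTAC was present in 7.14% of the members' promoters and 3.42% of all. These matches are descriptions of the letters in the window, and no binding was measured.

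Sequencing depth was even, at 37997896 to 39429453 estimated counts per library, and 56 of the 57 members passed the filter on low counts; MCIDAS, at 1 to 5 estimated counts per library, did not. VN replicate 1 stood apart from the other VN libraries in a comparison of replicate counts, with a median chi-square per gene of 2.25 and 2.62 against 0.455 under sampling noise, while the other VN pair gave 0.783. The OPC markers OLIG1, OLIG2, NKX2-2 and PDGFRA were present, while SOX10 was near 0, at a mean of 0 normalized counts on Matrigel and 3.59 on VNP2. The labels do not say whether replicates came from separate cultures, so p-values measure the spread between these libraries, which may be technical.

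Levels in TPM, a share of all transcripts corrected for transcript length, spread widely among the members. FOXJ1 had the highest level, at a mean of 61.2 TPM over the 8 libraries, ahead of SPAG16, a central pair protein, at 39.8 TPM. In all, 19 members had a mean of at least 10 TPM, 27 lay from 1 to 10 TPM and 11 lay under 1 TPM. The members under 1 TPM were MCIDAS, GMNC, CCNO, CFAP47, DNAI2 and the heavy chains DNAH2, DNAH3, DNAH8, DNAH10, DNAH11 and DNAH12. The summed TPM of all members was 481 and 486.2 on Matrigel, 504.5, 523.6 and 539.5 on VN, then 591.6, 602.1 and 628.4 on VNP2. The substrates did not overlap in TPM, which lacks the normalization between libraries used for the tests below. SPAG16 averaged 40.5 TPM on Matrigel and 40.8 TPM on VN, but 769 and 732.8 normalized counts. On the normalized scale the members' median log2 fold change of VN against Matrigel was 0.0374.

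**Figure D1:**
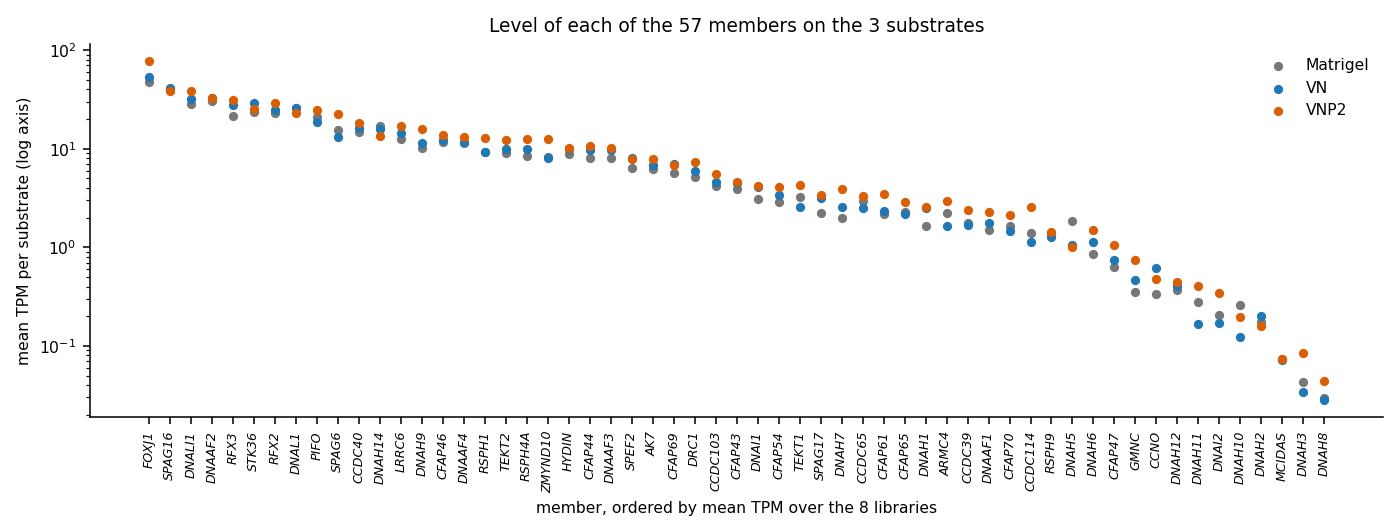
Mean TPM (log axis) of each of the 57 members on Matrigel, VN and VNP2, with members ordered by their mean over the 8 libraries. Levels run from 61.2 TPM for FOXJ1 to 0.0347 TPM for DNAH8.

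OPCs grown on VNP2 had higher levels of many members than OPCs grown on Matrigel. By edgeR's quasi-likelihood test at an adjusted p under 0.05, 20 of the 56 tested members were upregulated on VNP2 and 2 were downregulated. Over all 18201 tested genes, 7.44% were called higher, 9.13% were called lower and 16.6% were called in either direction. The median log2 fold change was 0.345 over the members and 0.00242 over all tested genes, and the fitted change was above 0 for 87.5% of the members and 50.5% of all genes. In 34 members every VNP2 library lay above both Matrigel libraries, and in 3 every VNP2 library lay below; over all genes, these shares were 23.0% and 25.1%. The count of called members rested on both Matrigel libraries, since it was 9 without Matrigel replicate 2 and 13 without Matrigel replicate 3.

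VN gave a different count against the same Matrigel libraries, which both comparisons share. Of the 56 tested members, 2 were upregulated on VN (RFX3 and DNAH1) and 3 downregulated (DNAH5, SPAG6 and PIFO). Over all tested genes, 5.66% were called higher, 9.61% lower and 15.3% in either direction. The members' median log2 fold change was 0.0374, beside 0.00433 for all genes, and the fitted change was above 0 for 57.1% of the members and 50.7% of all genes. In 11 members the VN libraries all exceeded both Matrigel libraries and in 10 they were all lower, beside 21.1% and 23.3% of all genes. Fewer members were called with either Matrigel library left out, and the members' median was then 0.036 without replicate 2 and 0.0492 without replicate 3.

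The direct comparison of the 2 vitronectin substrates was in 1 direction. On VNP2, 12 of the 56 members were upregulated relative to VN by edgeR and 0 were downregulated, beside 3.09% called higher, 2.01% called lower and 5.09% called in all among the tested genes. The 12 were FOXJ1, DNAH7, DNAH9, ZMYND10, CCDC114, DRC1, RSPH1, RSPH4A, SPAG6, CFAP70, TEKT1 and PIFO. The median log2 fold change was 0.302 for the members and 0.000748 for all genes. The fitted change was above 0 for 85.7% of the members and 50.2% of all genes. In 26 members the VNP2 libraries all exceeded the VN libraries and in 0 they were all lower, against 12.7% and 10.9% of all genes. At an unadjusted p under 0.05, 31 members were higher and 0 lower. DESeq2 called 13 and 0, and limma, on the values the authors normalized, called 14 and 0. The shares of all tested genes in these other settings were not counted, and the shares above do not apply to them. A test across the 3 substrates called 24 members, beside 19.3% of all genes.

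**Figure D2:**
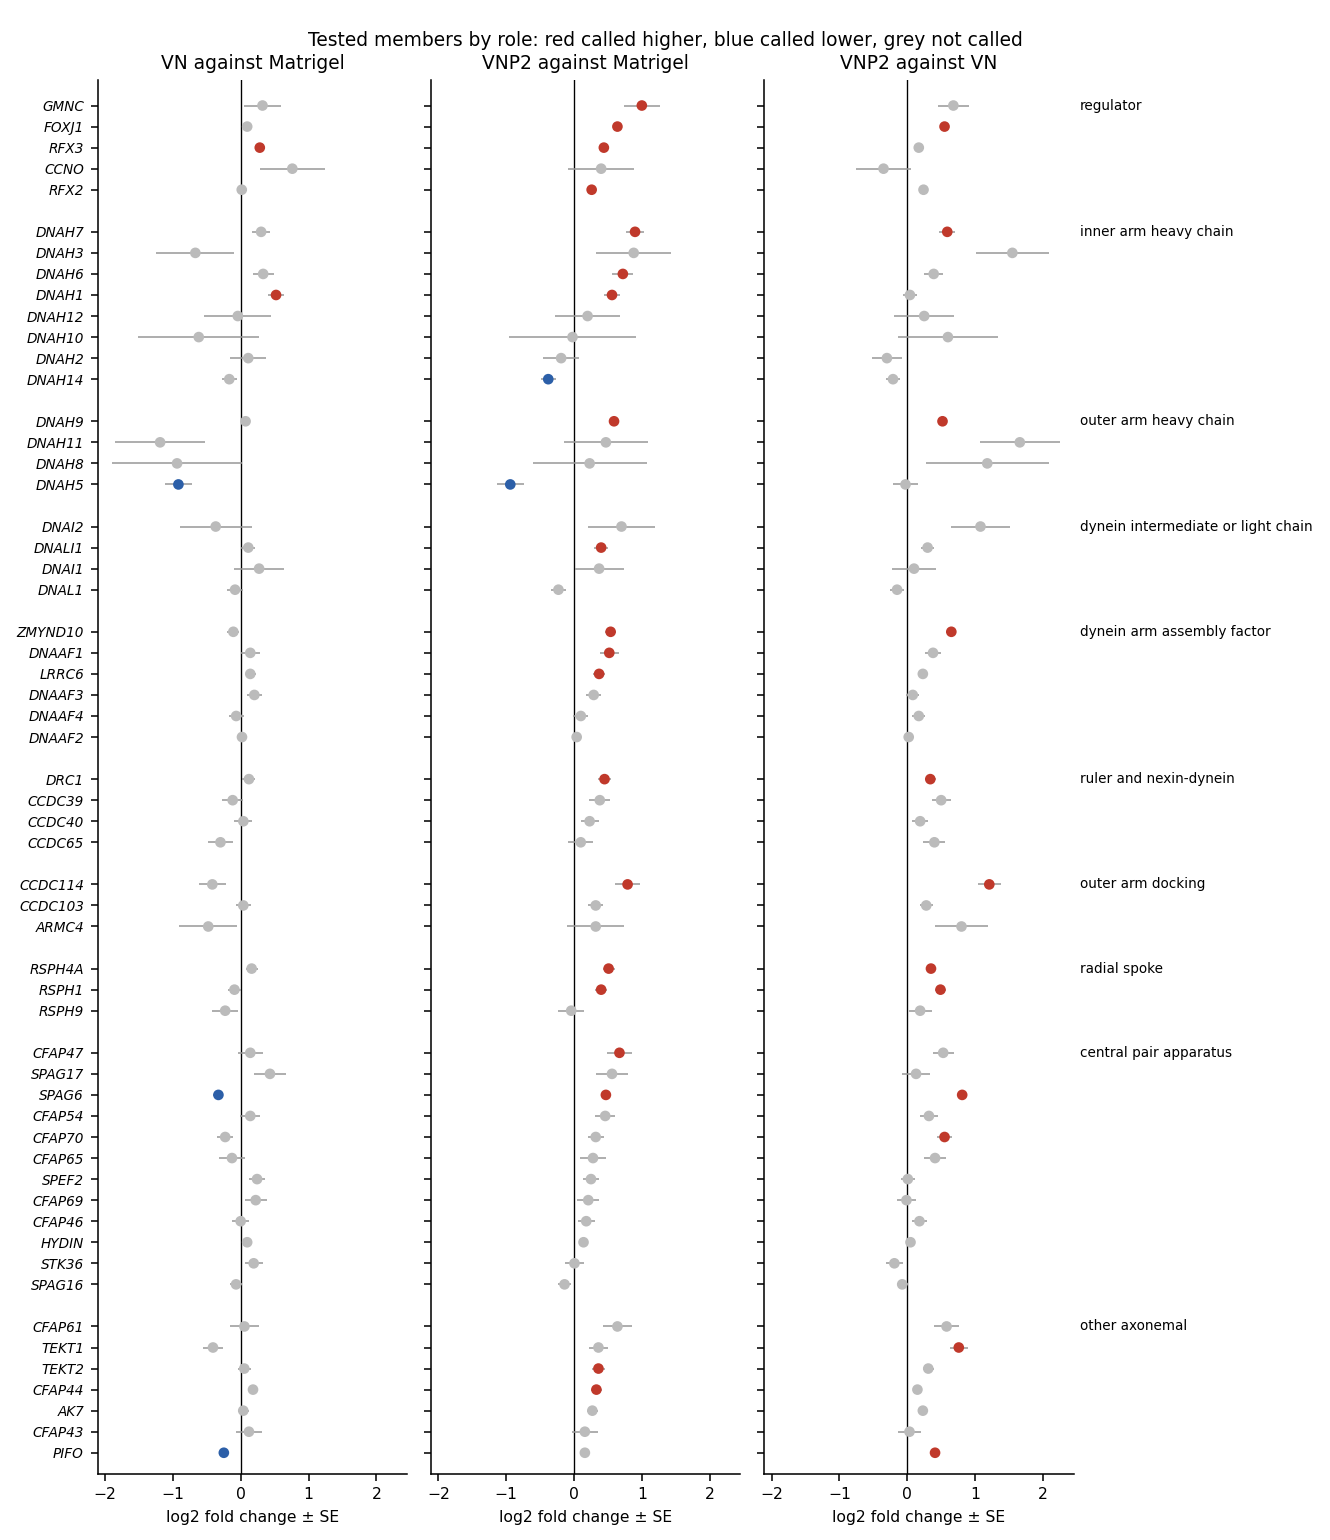
Log2 fold change with its standard error (SE) for each of the 56 tested members in the 3 comparisons, grouped by role, on a common scale. In VNP2 against Matrigel 20 members were called higher (red) and 2 lower (blue), while in VN against Matrigel 2 were called higher and 3 lower.

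Among the regulators, FOXJ1 had the smallest standard error. Its normalized counts were 2609.5 and 2590.1 on Matrigel, 2861.3, 2736.2 and 2727.2 on VN, then 3948.1, 4062.4 and 4175.5 on VNP2. All VNP2 libraries lay above all other libraries, and the VN libraries lay just above the Matrigel libraries. FOXJ1 was 1.56-fold higher on VNP2 than on Matrigel (log2 fold change 0.64, SE 0.043, adjusted p = 3.74e-06) and 1.46-fold higher than on VN (0.55, SE 0.0378, adjusted p = 4.28e-05). The difference between VN and Matrigel was 0.0942 (SE 0.043, adjusted p = 0.172).

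RFX3, unlike FOXJ1, was also called on VN against Matrigel; whether the 2 genes differ in this was not tested. RFX3 measured 3341.3 and 3338 normalized counts on Matrigel, 3785.3, 4169.9 and 4177.8 on VN, then 4545.1, 4461.8 and 4631.4 on VNP2. The 3 substrates did not overlap. RFX3 was called higher on VN (0.28, SE 0.0488, adjusted p = 0.00404) and on VNP2 (0.44, SE 0.0488, adjusted p = 0.000132), both against the same Matrigel libraries, while VNP2 against VN gave 0.17 (adjusted p = 0.0516).

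RFX2, a further X-box binding factor, gave 1474.3 and 1266.5 normalized counts on Matrigel, 1431.1, 1381.7 and 1332.9 on VN, then 1703.8, 1570.6 and 1631.1 on VNP2. Its VNP2 libraries were the 3 highest, and it was called against Matrigel (0.26, adjusted p = 0.0316) but not against VN (0.24, adjusted p = 0.0533). GMNC was scarce, at 22 to 49 estimated counts per library. Its normalized counts of 39.2, 52.3 and 39.7 on VNP2 lay above 21.2 and 22.4 on Matrigel and 26.2, 31.8 and 23.8 on VN. GMNC was upregulated on VNP2 against Matrigel (2.0-fold, adjusted p = 0.0269). Salmon assigned 33.8% of its counts to GMNC-204, a retained-intron transcript. The protein-coding GMNC-201 overlapped, with 22 and 23 counts on Matrigel and 19, 48 and 41 on VNP2. CCNO, at 6 to 18 counts, was not called (VNP2 against Matrigel 0.40, SE 0.485), and a change of that size was not detectable at this depth.

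**Figure D3:**
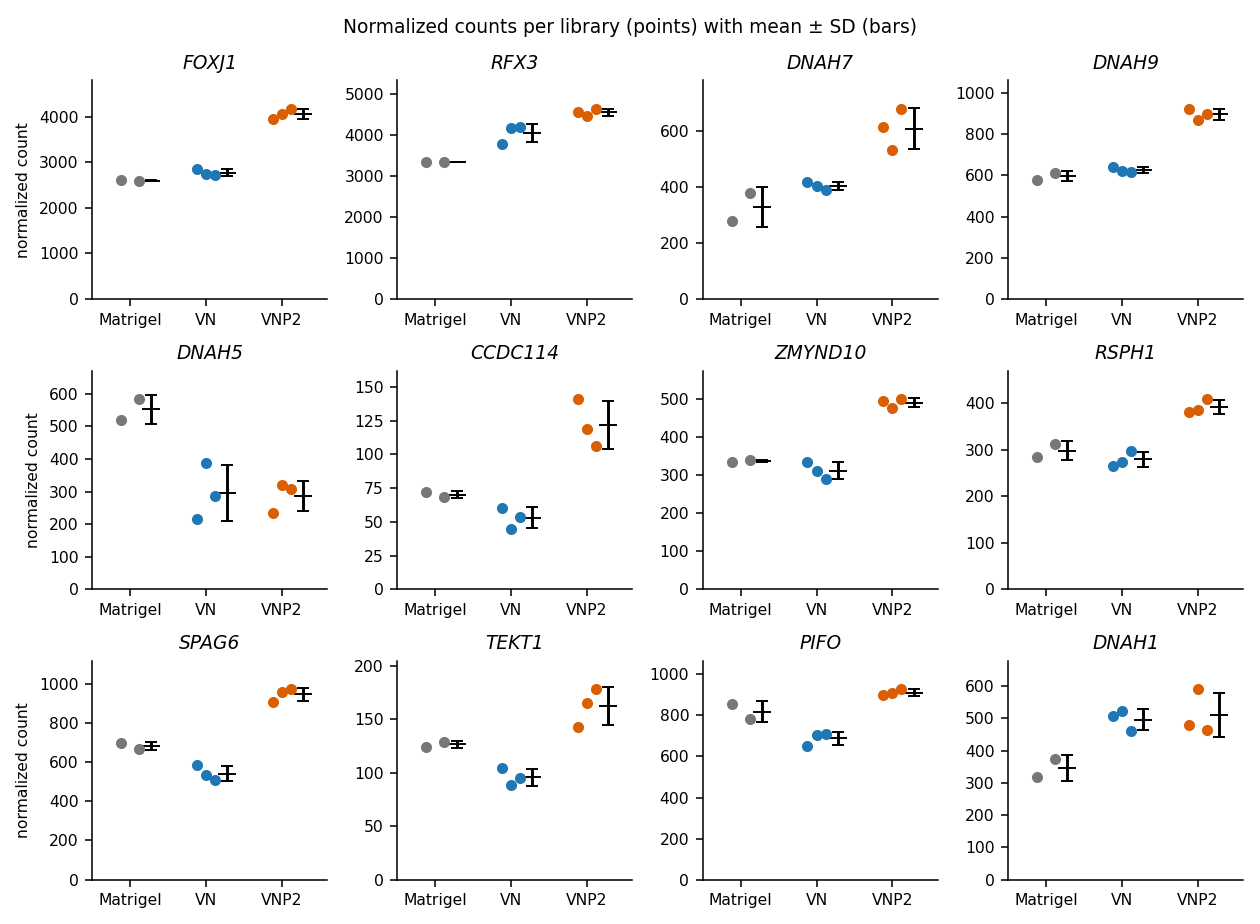
Normalized counts of 12 members in each of the 8 libraries (points), with the mean and SD of each substrate (bars; n = 2, 3 and 3). The 3 VNP2 libraries lie above all others for FOXJ1, DNAH9, ZMYND10 and SPAG6, while for DNAH5 both Matrigel libraries are the highest.

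The dynein heavy chains are the motors of the arms. DNAH1, DNAH6, DNAH7 and DNAH9, together with the light chain DNALI1, are named in the study on the basis of these same samples, so their direction is not independent evidence. The study reports them as upregulated on both VN and VNP2 relative to Matrigel. Its groups of genes came from a likelihood ratio test across the 3 substrates and from expression patterns, not from pairwise calls. The test across the 3 substrates here called all 5, beside 19.3% of all tested genes. In pairs, all were called higher on VNP2 against Matrigel, but only DNAH1 was on VN. The fitted changes of the rest on VN ran from 0.0706 for DNAH9 to 0.33 for DNAH6. Without these 5, 15 of 51 tested members were called higher and 2 lower in VNP2 against Matrigel, beside 7.44% and 9.13% of all tested genes. The remaining members are not independent of these samples either. SPAG6, CCDC114 and ZMYND10 are in the study's own list of genes that differ between VNP2 and VN.

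DNAH9, an outer arm heavy chain, measured 578.5 and 612.2 normalized counts on Matrigel, 641.1, 618.6 and 616.1 on VN, then 922.6, 869 and 897.2 on VNP2. Every VNP2 library exceeded every other library. The fold was 1.51 against Matrigel (log2 0.59, SE 0.0631, adjusted p = 0.000109) and 1.43 against VN (0.52, SE 0.0556, adjusted p = 0.000476). Salmon assigned 46.1% of its counts to DNAH9-209, a transcript of 1986 bases, and 35.1% to the 13750-base DNAH9-201. The short transcript had 262 and 264 counts on Matrigel, 293, 287 and 301 on VN, then 439, 411 and 417 on VNP2, again without overlap, whereas the long transcript overlapped, with 205 and 230, then 236, 101 and 254, then 232, 391 and 387. The gene-level difference therefore includes a transcript far shorter than a heavy chain.

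DNAH7, an inner arm heavy chain, gave 279.6 and 379.4 normalized counts on Matrigel, 417.6, 403.8 and 389.6 on VN, then 616.6, 533.1 and 681.2 on VNP2. The VNP2 libraries were the 3 highest, and the Matrigel libraries the 2 lowest. It was upregulated on VNP2 against Matrigel (0.90, SE 0.136, adjusted p = 0.00121) and against VN (0.59, SE 0.118, adjusted p = 0.0165). Its main transcript, DNAH7-201 of 12394 bases, took 89.9% of the counts.

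DNAH6, also of the inner arm, measured 175.5 and 206.1 on Matrigel, 213.7, 218.9 and 287 on VN, then 310.3, 279.7 and 351.3 on VNP2. The VN library of replicate 3 lay within the VNP2 range, and only the difference between VNP2 and Matrigel was called (0.72, SE 0.156, adjusted p = 0.0101).

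DNAH1, an inner arm heavy chain, measured 317.2 and 374.1 on Matrigel, 506.2, 521.9 and 460.4 on VN, then 480.5, 590.2 and 463.6 on VNP2. Both vitronectin substrates lay above Matrigel and overlapped each other. It was called higher on VN (0.52, SE 0.12, adjusted p = 0.0163) and on VNP2 (0.56, SE 0.12, adjusted p = 0.00953). These calls depend on the correction for transcript length: the estimated counts before it were 353 and 450 on Matrigel, 491, 430 and 457 on VN, then 483, 480 and 534 on VNP2, and neither call held without it. In VN replicates 2 and 3, DNAH1 counts went to DNAH1-204, a retained-intron transcript, with 346 and 388 counts, and 0 went to DNAH1-201, the main transcript in the other libraries.

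DNAH5, the outer arm heavy chain that is often mutated in primary ciliary dyskinesia, went the other way. It measured 519.8 and 583.7 normalized counts on Matrigel, 216.2, 386.9 and 285.5 on VN, then 235.3, 320.5 and 306.8 on VNP2. Both Matrigel libraries lay above all others, and VN and VNP2 overlapped. It was downregulated on VN (-0.92, SE 0.203, adjusted p = 0.013) and on VNP2 (-0.94, SE 0.201, adjusted p = 0.00911), and VNP2 against VN gave -0.0257 (adjusted p = 0.96). Its counts before length correction showed the same separation, with 507 and 489 on Matrigel and 263 to 325 in the other 6 libraries. DNAH14 was also called lower on VNP2 (-0.38, adjusted p = 0.0446), but this call was lost under 11 of 16 alternatives, and its most abundant transcript, DNAH14-205, was 1103 bases long.

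The other heavy chains, DNAH2, DNAH3, DNAH8, DNAH10, DNAH11 and DNAH12, were not called in any pair. Length correction moved low values of this kind: DNAH10 had 20 and 22 estimated counts on Matrigel but 9.09 and 78.1 normalized counts there. DNAH11 gave the largest fitted change of VNP2 against VN, 1.66, with an SE of 0.587 and an adjusted p of 0.149.

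DNALI1, an inner arm light chain, needed the authors' own table, because the annotation used for summing covers 0.299 of the level that table gives. There it measured 2257.2 and 2427.7 on Matrigel, 2351, 2366.1 and 2652 on VN, then 2713.8, 2733.7 and 2801.4 on VNP2. All VNP2 values lay above all others, while VN and Matrigel overlapped. On the log2(value + 1) scale, limma gave 0.23 for VNP2 against Matrigel (SE 0.0592, adjusted p = 0.0194), 0.16 for VNP2 against VN (adjusted p = 0.103) and 0.07 for VN against Matrigel (adjusted p = 0.483). Of the 17931 genes tested this way, 8.14% were called higher on VNP2 than on Matrigel. Summed here, the partial gene gave 0.40 (SE 0.104, adjusted p = 0.0241). ARMC4 and CCDC39, at 0.789 and 0.854 of the table's level, were the other members outside 5% of it, and limma called neither on VNP2 against Matrigel (adjusted p = 0.265 and 0.0745). The remaining chains, DNAI1, DNAI2 and DNAL1, were not called in any pair.

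Assembly factors build dynein arms in the cytoplasm, and 3 of the 6 were upregulated on VNP2 against Matrigel. ZMYND10 measured 334.3 and 338.2 normalized counts on Matrigel, 334, 311.3 and 288.2 on VN, then 493.5, 475.1 and 498.6 on VNP2. The VNP2 libraries stood clear of all others, with 0.54 against Matrigel (SE 0.0852, adjusted p = 0.00157) and 0.65 against VN (SE 0.0759, adjusted p = 0.000764). DNAAF1 rose by 0.52 (adjusted p = 0.0274) and LRRC6 by 0.37 (adjusted p = 0.0115) on the log2 scale against Matrigel. Of DNAAF1's counts, 81.3% went to DNAAF1-209, a retained-intron transcript. DNAAF2, DNAAF3 and DNAAF4 ranged from 0.0392 to 0.29 in that comparison and were not called.

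CCDC114, which docks the outer arm to the doublet, showed the largest called difference between VNP2 and VN. It measured 72 and 68.4 normalized counts on Matrigel, 60.5, 45 and 53.3 on VN, then 141.1, 118.8 and 106 on VNP2. The VNP2 libraries were the 3 highest and the VN libraries the 3 lowest. The log2 fold change was 1.21 against VN (SE 0.171, adjusted p = 0.00245) and 0.79 against Matrigel (SE 0.19, adjusted p = 0.017), and VN against Matrigel gave -0.42 (adjusted p = 0.188). Salmon assigned 57.7% of CCDC114's counts to CCDC114-202 and 15.5% to CCDC114-204, both retained-intron transcripts. The protein-coding CCDC114-201 took 20.7% and overlapped, with 13, 18 and 15 counts on VN and 47, 13 and 19 on VNP2. DRC1, a nexin-dynein subunit, measured 295.5 and 309 on Matrigel, 319.4, 306.5 and 357 on VN, then 390.5, 431.6 and 419.4 on VNP2. It was called against Matrigel (0.45, adjusted p = 0.00784) and against VN (0.34, adjusted p = 0.0451), the latter lost under 9 of 16 alternatives.

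Of the radial spoke genes, RSPH1 and RSPH4A, both of the spoke head, were upregulated on VNP2, and RSPH9 was not called. RSPH4A measured 581.7 and 557.2 on Matrigel, 566.1, 700.1 and 645.7 on VN, then 811.7, 830.7 and 788.7 on VNP2. RSPH1 measured 283.2 and 311.8, then 265.5, 273.4 and 297.5, then 380.1, 384.7 and 408.5. In both genes the VNP2 libraries were the 3 highest. RSPH1 was higher by 0.40 against Matrigel (adjusted p = 0.0146) and 0.49 against VN (adjusted p = 0.00653), and RSPH4A by 0.51 (adjusted p = 0.00266) and 0.35 (adjusted p = 0.0271).

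SPAG6, a central pair protein, was called in all 3 pairs and in opposite directions. It measured 696.5 and 668.2 normalized counts on Matrigel, 584, 533.8 and 506.9 on VN, then 908.5, 959.6 and 973 on VNP2. The 3 substrates did not overlap, with VN lowest and VNP2 highest. Against Matrigel it fell on VN (-0.33, SE 0.0745, adjusted p = 0.0133) and rose on VNP2 (0.47, SE 0.0732, adjusted p = 0.00139). VNP2 against VN gave 0.81 (SE 0.0658, adjusted p = 9.09e-05), or 1.75-fold.

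CFAP47, another central pair gene, was called higher on VNP2 than on Matrigel (0.67, adjusted p = 0.027), from 92.1 and 84 normalized counts on Matrigel to 126.1, 156.7 and 140.7 on VNP2. CFAP70 was called only in VNP2 against VN (0.55, adjusted p = 0.0138), a call lost without length correction. Of CFAP70's counts, 69.9% went to CFAP70-207, annotated as a processed transcript and not as protein-coding. The other 9 central pair members, SPAG17 and HYDIN (uncertain, since it has a near-identical copy) among them, were not called in any pair, with log2 fold changes of -0.14 for SPAG16 to 0.56 for SPAG17 in VNP2 against Matrigel.

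Among the other axonemal genes, TEKT1, a filament protein of the doublets, measured 124 and 129 normalized counts on Matrigel, 104, 88.1 and 94.7 on VN, then 143, 165.4 and 178 on VNP2. The 3 substrates did not overlap, and VNP2 against VN was called (0.76, SE 0.129, adjusted p = 0.0067), whereas neither difference from Matrigel was. PIFO measured 853.7 and 782.8 on Matrigel, 651.2, 706 and 707.6 on VN, then 897.3, 909.8 and 927.2 on VNP2, with no overlap between substrates either. It was higher on VNP2 than on VN (0.41, SE 0.0592, adjusted p = 0.00296) and lower on VN than on Matrigel (-0.25, adjusted p = 0.03), the latter lost under 8 of 16 alternatives. TEKT2 (0.36, adjusted p = 0.027) and CFAP44 (0.33, adjusted p = 0.0179) were called higher on VNP2 against Matrigel alone. CFAP44 overlaps a protein-coding gene on its strand, so reads could be shared between them.

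Many calls were lost when 1 library was left out, which also leaves fewer libraries to test with. Of the 22 called in VNP2 against Matrigel, 7 held under every alternative, namely FOXJ1, RFX3, DNAH7, DNAH9, RSPH4A, SPAG6 and ZMYND10. Without Matrigel replicate 2 the calls of GMNC, DNAH1, DNAH6, DNAH14, DNALI1, DNAAF1, LRRC6, CCDC114, DRC1, RSPH1, CFAP44, CFAP47 and TEKT2 were lost. Without Matrigel replicate 3 those of RFX2, GMNC, DNAH5, DNAH14, DNAAF1, LRRC6, CCDC114, CFAP44, CFAP47 and TEKT2 were lost. Without 1 of the VNP2 libraries, calls were lost for RFX2, CCDC114, DNALI1, DNAH14 and TEKT2 (replicate 1), for GMNC, CFAP47, DNALI1 and DNAH14 (replicate 2) and for RFX2, DNAAF1, RSPH1, CFAP44, CFAP47 and TEKT2 (replicate 3). DNAH14 was also lost without any 1 of the VN libraries. In VN against Matrigel, DNAH5, SPAG6 and PIFO were lost without either Matrigel library and DNAH1 without replicate 2, and PIFO also without any 1 of the VN libraries or VNP2 replicate 3. In VNP2 against VN, DNAH7 was lost without VN replicate 2 or 3 or VNP2 replicate 1 or 3, RSPH4A without VN replicate 3 or any 1 of the VNP2 libraries, CFAP70 without VNP2 replicate 3, and DRC1 without any 1 library other than VN replicate 3.

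Further cilium genes were taken from written lists. Of 65 tested motile cilium genes that are not members, 15 were called higher and 1 lower in VNP2 against Matrigel (median log2 fold change 0.221). VN against Matrigel gave 0 higher and 4 lower, and VNP2 against VN gave 13 higher and 0 lower. Shares of all tested genes called higher and lower were 7.44% and 9.13%, 5.66% and 9.61%, then 3.09% and 2.01%, in the same order. The 4 called lower on VN were 6.15% of the list, under the 9.61% of all tested genes. For the count of 0 higher on VN, an unadjusted p under 0.05 gave 4, and DESeq2 and limma each gave 0. For the count of 0 lower on VNP2 against VN, all of these gave 0. CFAP126 measured 253.8 and 217.7 normalized counts on Matrigel, 246.9, 252.3 and 231.1 on VN, then 405.1, 441.1 and 457.1 on VNP2, a log2 fold change of 0.88 against Matrigel (adjusted p = 0.000197). SPATA17 (0.64), MAP3K19 (0.81) and TPPP3 (0.35) were the next by adjusted p. CFAP126, MAP3K19 and TPPP3 are also in the study's list of genes that differ between VNP2 and VN. So are CFAP45, CFAP52, C9orf24 and CCDC170, which were called higher on VNP2 than on VN here. The counts for this list are therefore not independent of the study's list.

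The remaining cilium lists gave shares called higher on VNP2 against Matrigel closer to the 7.44% of all tested genes. These shares were 9.38%, 7.41% and 9.09%, in the order below, and 9.13% of all tested genes were called lower. Of 32 genes of intraflagellar transport, which carries cargo along every kind of cilium, 3 were called higher on VNP2 than on Matrigel (TTC26, TCTEX1D2 and KIF17), with a median of 0.0307. Of 27 tested BBSome and transition zone genes, 2 were called higher (CC2D2A and BBS4) and 1 lower (CEP290), with a median of 0.0343. Of 22 tested centriole amplification and ciliogenesis factors, 2 were called higher (RFX4 and TP73), with a median of 0.0177. The difference between lists was not tested.

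**Figure D4:**
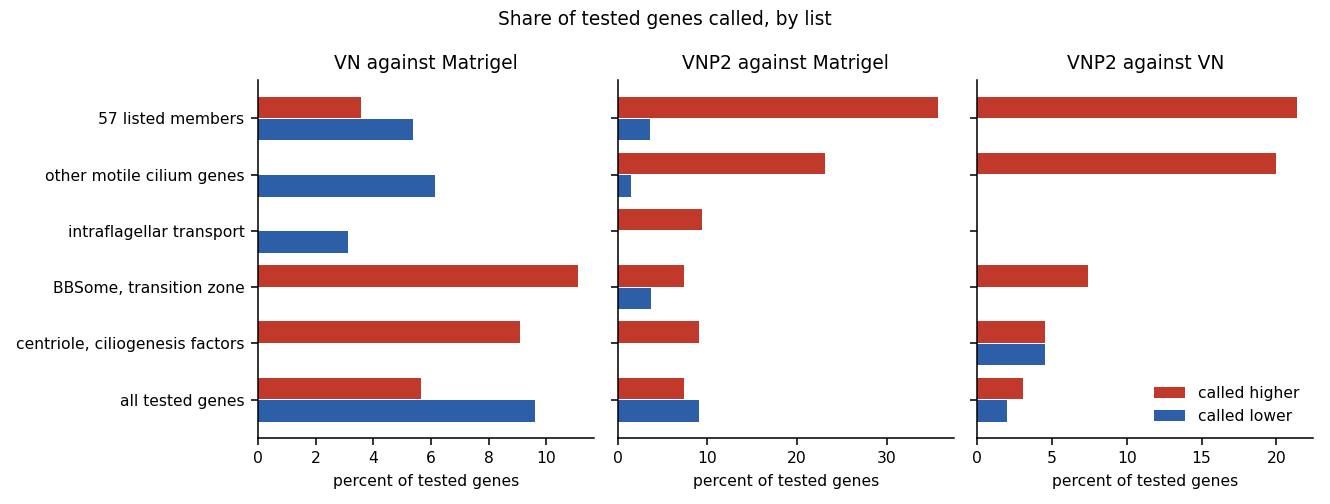
Percent of tested genes called higher (red) and lower (blue) in each comparison, for the members, the 4 further cilium lists and all tested genes; each panel has its own axis from 0. In VNP2 against Matrigel, 35.7% of the members and 7.44% of all genes were called higher.

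Of 11 floor plate markers 9 were tested, and 7 were called higher and 1 lower (SHH, -0.622) in VNP2 against Matrigel. Over all tested genes, 7.44% were called higher and 9.13% lower. Most tested OPC, neuron, and neural crest and mesenchyme markers were also called higher, as given below. The floor plate list's summed normalized counts were 94960.6 to 97585.9 on Matrigel, 95037.5 to 97651.9 on VN and 116445.6 to 120146.7 on VNP2. CORIN fell on VN (-0.83) and rose on VNP2 (0.61) against Matrigel, as did NTN1 (-0.30 and 0.28). SLIT1 rose on VNP2 against Matrigel (1.04), while FERD3L and LMX1A were near 0. CORIN and SLIT1 are also in the study's list of genes that differ between VNP2 and VN in these samples. The part of these markers in the members' differences was not tested, and in these bulk samples more cells of a type and more RNA per cell cannot be told apart.

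Lists for other ciliated cells held both scarce and abundant markers. The choroid plexus markers TTR, KCNJ13, FOLR1 and KL averaged at most 4.88 normalized counts on any substrate, although OTX2 of the same list averaged 5431.2 on Matrigel. The summed choroid plexus list ran from 5504.6 to 5928.6 on Matrigel, 6249.6 to 6669.2 on VN and 6201 to 6550.4 on VNP2, with 1 of 5 tested markers called higher and 1 lower on VNP2 against Matrigel. Of the ependymal list, TMEM212, SNTN, MIA and AQP4 averaged at most 7.75 normalized counts, and 3 of 6 tested markers were called higher and 1 lower on VNP2 against Matrigel. Its sum, which VIM dominates, was 103714.3 to 105917.4 on Matrigel, 73618.5 to 78888.2 on VN and 87335.6 to 90564.5 on VNP2. Of the remaining lists, called higher and lower on VNP2 against Matrigel were 6 and 1 of 8 OPC and ventral progenitor markers, 6 and 0 of 8 neuron markers, 5 and 1 of 8 neural crest and mesenchyme markers, 1 and 4 of 6 pluripotency markers, and 1 and 0 of 2 astrocyte markers. Summed levels did not always follow these counts. The OPC list, which NES dominates, summed to 92125.9 to 93778.6 normalized counts on Matrigel, 81932.9 to 84493.2 on VN and 79869.1 to 82778 on VNP2. The neural crest and mesenchyme list summed to 48610.2 to 50537.7 on Matrigel, 45194.2 to 48161.4 on VN and 39423.3 to 40123.6 on VNP2. The neuron list summed to 36816.2 to 38484.9, then 41866 to 44740.9, then 46520 to 47871.2 in the same order. The pluripotency list summed to 5897.9 to 6274.9, 4798.3 to 4878.2 and 4373.3 to 4603.5, and the astrocyte list to 1298.4 to 1313.4, 1071.5 to 1237.7 and 1461.7 to 1639.2. The part of these lists in the members' differences was not tested.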

How the data were processed

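RNA-seq libraries were made with a stranded polyA kit. Per the labels and the study's methods, the authors trimmed reads with Trim Galore, ran Salmon on GENCODE transcripts (GRCh38.p13) and normalized with DESeq2 1.27.12. The authors deposited Salmon's estimated counts per transcript, its TPM values and effective lengths, and a gene table of normalized counts, a signal obtained with length-aware normalization factors.

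Here estimated counts were summed per gene through GENCODE v29 (205225 of 226608 transcripts matched, holding 98.79 to 98.88% of the counts), joining the 2 identifiers of CCDC39, and rounded. Genes kept by filterByExpr (minimum count 10, minimum total 15) were fitted over all 8 libraries with edgeR 4.0.16 (R 4.3.3), using quasi-likelihood tests, TMM and offsets for average transcript length. Two-sided p-values were adjusted by Benjamini-Hochberg within each comparison over the 18201 genes, with 0.05 as the threshold for a call. The SE is the log2 fold change divided by the root of F. Normalized counts are counts divided by the same offsets. limma 3.58.1 on log2(value + 1) of the authors' table, for genes with a mean of at least 10, and DESeq2 1.42.0 were alternatives. Tables were made with Python 3.11.15 and pandas 2.3.3. The fit was tested on simulated data.

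Named members were those called in at least 1 pair, the dyneins the study names, the 6 regulators and any member whose count limits a statement. From each further cilium list, up to 4 genes with the smallest adjusted p in VNP2 against Matrigel could be named. Motile cilium genes called in VNP2 against VN that are in the study's list for that pair were named too. Cell type markers came from written lists. The members and lists were chosen with earlier results of these data known. Promoter sequences were RefSeq's. Promoters on chromosome 8, where LRRC6 lies, were left out of the members' search. LRRC6 and the members without an entry, 13 in all, were not searched. Replicate 1 of Matrigel was not analysed here. A count of 100 carries a sampling error of 10%, so low members have wide errors.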

Additional observations from a re-analysis of the deposited data

Results flagged for a closer look

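SPAG6 moved in opposite directions on the vitronectin substrates. Against the same Matrigel libraries it was lower on VN by a log2 fold change of -0.33 and higher on VNP2 by 0.47, and the difference itself, VNP2 against VN, was 0.81 (edgeR quasi-likelihood test, adjusted p = 9.09e-05). All 3 VNP2 libraries lay above both Matrigel libraries and all 3 VN libraries lay below them. The call of VNP2 against VN held under all 16 alternatives, and that of VN against Matrigel was lost without either Matrigel library.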

How the results depend on the processing

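Of 1240 repeats of the named members' log2 fold changes under 16 alternatives, 1118 kept direction and side of the threshold, 81 lost a call, 27 gained one and 14 changed sign, all 14 for differences that were not called. Of the called members, 1 of 5 in VN against Matrigel (RFX3), 7 of 22 in VNP2 against Matrigel (FOXJ1, RFX3, DNAH7, DNAH9, RSPH4A, SPAG6 and ZMYND10) and 8 of 12 in VNP2 against VN (FOXJ1, DNAH9, CCDC114, RSPH1, SPAG6, TEKT1, ZMYND10 and PIFO) were called under every alternative.

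Leaving out 1 library at a time, called members numbered 1 to 5 in VN against Matrigel, 9 to 24 in VNP2 against Matrigel, 8 to 15 in VNP2 against VN (8 without VNP2 replicate 3) and 16 to 28 across the 3 substrates. Called genes numbered 1188 to 3901, 1609 to 3608, 547 to 1996 and 1879 to 4973 in the same order, with the highest without VN replicate 1. Leaving out a Matrigel library leaves 1, which is then assumed to vary like the other groups. Without length offsets 20 members were called in VNP2 against VN (12 with them) and 32 in VNP2 against Matrigel (22 with them), while the counts over all tested genes went from 927 to 1099 and from 3016 to 3191; the cause was not tested.

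Sign changes without length offsets, in VN against Matrigel, were CFAP70 at 0.12, DNAH14 at 0.052 and DRC1 at -0.0289, and, in VNP2 against VN, DNAH5 at 0.186. With 1 library left out, VN against Matrigel ranged from -6.39e-05 to 0.203 for DNALI1, -0.0925 to 0.131 for RFX2 and -0.0222 to 0.133 for TEKT2, VNP2 against Matrigel from -0.0555 to 1.11 for CCNO, and VNP2 against VN from -0.0722 to 0.107 for DNAH1 and -0.222 to 0.202 for DNAH5.

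Replicate numbers did not pair the libraries: deviations of same-numbered libraries correlated at -0.045 to 0.0164. With the replicate number as a block, 5, 23, 16 and 23 members were called in VN against Matrigel, VNP2 against Matrigel, VNP2 against VN and across the substrates, and RFX2 on VN was at -0.013. Depth limits MCIDAS, CCNO and the heavy chains under 1 TPM.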
